A study of Mus musculus with 6 samples.

Results

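The genes described here are the named genes of proximal chromosome 12 around *Greb1*, measured in testis of Prss55-/- and wt mice. A gene was a member when the array files gave it a name of its own and placed a probe for it on chromosome 12 between 3 and 20 Mb of the mm9 build, with *Pomc* and *Pdia6* left out. This gave 76 of the 21249 named genes of the array, read by 136 probes. The block was chosen by the Prss55-/- minus wt differences of *Greb1*, *E2f6* and their neighbours, so that every difference between genotypes in these genes is a description and carries no test.

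Total RNA came from testes of 6 to 8 week old males, 3 Prss55-/- and 3 wt, each on 1 one-colour (Cy3) Agilent whole mouse genome array. The Prss55-/- mice lack *Prss55*, a testis serine protease gene, in every cell after homologous recombination. The methods give a mixed 129Sv/C57BL/6 background for the Prss55-/- line and name no other for the wt mice. The methods describe matings between heterozygous mice that gave all genotypes, and do not say whether the wt mice of the arrays were littermates of the Prss55-/- mice. Nothing in the labels says that the samples of a genotype came from separate litters. Between 69.5% and 72.9% of the spots of an array were well above background. The 3 Prss55-/- arrays lay on 1 slide and the wt arrays on 2 others, so slide and genotype cannot be told apart. The *Prss55* probe, on chromosome 14, read 15.08, 14.94 and 14.93 (log2 signal) in Prss55-/- testis and 15.87, 15.78 and 16.01 in wt testis, and whether it lies within the disrupted part of the gene was not determined. The paper reports that *Prss55* mRNA and protein were absent from these mice, by RT-PCR, Western blotting and immunofluorescence. In this bulk tissue, fewer cells of a type and less RNA per cell cannot be told apart. Among 10 lists of testicular and neighbouring cell types, the summed linear signal of round spermatid markers was higher in all Prss55-/- arrays (117663 to 122542) than in the wt arrays (107488 to 113531). Those of macrophages (2879 to 3122 against 3217 to 3240), peritubular and vascular cells (12702 to 13552 against 13732 to 14485) and epididymis (120.1 to 260.1 against 481.9 to 543.6) were lower, and in the epididymal list *Crisp1*, *Lcn8* and *Lcn5* stayed at background on every array. The other 6 lists overlapped between genotypes. No marker gene of the 10 lists had an adjusted p below 0.05 by limma, and 28.0% of all tested named genes did not overlap. The part of any list in the differences below was not tested.

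*Greb1* encodes a cofactor of the oestrogen receptor and is one of the best known genes switched on by oestrogen. *E2f6* encodes an E2F family member that lacks the activation and pocket protein binding domains of its relatives and represses genes as part of a Polycomb complex, among them germline genes in somatic cells. The genes lie next to each other and are transcribed away from each other: in the RefSeq annotation of GRCm38.p6 their starts are 10.1 kb apart, *Greb1* on the minus strand and *E2f6* on the plus strand. Because these neighbours show the differences that the block is named for, the 250 bases before their starts are printed, with those of *Lpin1*, which lies on the other side of *Greb1*. The sequences are RefSeq's, 5′ to 3′ on the strand of the gene, at chr12:16800887-16801136 for *Greb1*, chr12:16810715-16810964 for *E2f6* and chr12:16610967-16611216 for *Lpin1* (GRCm38.p6). Capitals mark AGGTCA or its reverse complement, 1 arm of the oestrogen response element.
Greb1: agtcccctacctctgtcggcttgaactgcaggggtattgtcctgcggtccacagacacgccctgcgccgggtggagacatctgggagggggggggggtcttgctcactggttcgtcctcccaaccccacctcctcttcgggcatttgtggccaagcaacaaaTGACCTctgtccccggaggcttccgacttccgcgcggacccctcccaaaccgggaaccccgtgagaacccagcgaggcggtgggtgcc
E2f6: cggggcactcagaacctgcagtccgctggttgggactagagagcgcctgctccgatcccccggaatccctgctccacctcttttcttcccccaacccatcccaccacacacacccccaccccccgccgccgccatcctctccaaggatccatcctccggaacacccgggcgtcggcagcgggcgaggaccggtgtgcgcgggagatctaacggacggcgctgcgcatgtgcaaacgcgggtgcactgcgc
Lpin1: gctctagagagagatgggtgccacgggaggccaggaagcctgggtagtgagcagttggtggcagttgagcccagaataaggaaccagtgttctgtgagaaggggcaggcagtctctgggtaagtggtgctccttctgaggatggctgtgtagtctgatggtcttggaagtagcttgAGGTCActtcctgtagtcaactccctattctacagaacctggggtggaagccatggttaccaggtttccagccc

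The single match upstream of *Greb1* reads TGACCT and that of *Lpin1* AGGTCA, and *E2f6* had none. In windows of 300 bases that also take in the 50 bases after the start, AGGTCA was found on either strand in 16.3% of 32851 promoters of the table and in 13.8% of the 80 promoters of members (65 of the 76 members have a promoter in it). The whole oestrogen response element, GGTCANNNTGACC, which contains no AGGTCA of its own unless an A precedes or a T follows it, was in 0.07% of all promoters and in 0 of the 80. E2F sites (TTTCGCGC, TTTGGCGC or TTCCCGCC) were in 2.96% of all promoters and in 4 of the 80, those of *Cenpo*, *Mycn*, *Pum2* and *Rad51ap2*. The E-box CACGTG, which MAX and MGA of the E2F6 complex bind, was in 7.15% of all and in 5 of the 80, and the cAMP response element TGACGTCA in 1.79% of all and 4 of the 80. Neither E2F sites nor CACGTG were found in the windows of *Greb1*, *E2f6* and *Lpin1*. These are matches of letters within the window only.

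The values come from probes of 60 bases in mm9 coordinates, which differ from the coordinates above. The probes whose values stand out are shown by their first 30 bases in the order of the array files, all in lower case since no part of them is singled out. They lie at chr12:16678736-16678795 for *Greb1* (minus strand), chr12:16833463-16833522 for *E2f6* (plus strand), chr12:17179527-17179586 for *Kcnf1* (minus strand) and chr12:18198751-18198810 for *Gm9229* (plus strand). No mm9 annotation was used here, so the exon or UTR each probe lies in is not given.
Greb1 probe: ctacagagcaatattccaaaggaacatttt
E2f6 probe: ggtaaacctctcctgctttacaaaagattt
Kcnf1 probe: atactcagagatccaaagtatctttttgct
Gm9229 probe: atgatcccaggtgactttgtgaggatgaag

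Probes entered the fit when the 3 arrays of a genotype all read them well above background, and 64 of the 76 members had such a probe (100 probes). Of these 100, 98 were well above background on all 3 arrays of both genotypes, and 2 passed through 1 genotype only, those of *Kcnf1* and *Msgn1*. The 12 members that were not tested include *Apob*, the apolipoprotein of liver and gut, *Adcy3*, an adenylate cyclase, *Vsnl1*, a neuronal calcium sensor, and *Matn3*, a cartilage matrix protein. Where a gene had several tested probes, the brightest on average stands for it in counts of genes whose genotypes did not overlap. By that count 28 of the 64 members did not overlap, 16 higher and 12 lower in Prss55-/- testis, and over all 16577 tested named genes the share was 28.0%. Members with an adjusted p below 0.05 by limma on any probe numbered 6 (*Greb1*, *E2f6*, *Lpin1*, *Hpcal1*, *Gm4983* and *Gm9229*, all higher in Prss55-/- testis), where 1.57% of all named genes were called. Without Prss55-/- replicate 2 or Prss55-/- replicate 3 only *Greb1* and *E2f6* of these had an adjusted p below 0.05, and without wt replicate 1 *Greb1*, *E2f6* and *Gm9229*. Without wt replicate 2 the members called were *Greb1*, *E2f6* and *Kcnf1*, and without wt replicate 3 the call of *Lpin1* was lost and that of *Kcnf1* gained. By the methods' thresholds (2-fold, and p below 0.05 without adjustment) 3 members passed (*Greb1* and *Gm9229* higher, and *Kcnf1* lower, whose Prss55-/- values were not well above background) and 0.826% of all named genes. Since the same contrast chose the block, nothing is read from these counts.

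Along the block the differences of named members were unevenly placed. Probes without a gene name are left out of these counts. The 2 such probes with an adjusted p below 0.05 by limma, NAP092468-001 (1.92) and NAP043799-1 (-0.58), both lie proximal to *Trib2*. From *Rab10*, the most proximal member at 3.25 Mb, to *Trib2* at 15.80 Mb, 13 of 46 tested members (28.3%) did not overlap between genotypes, 6 higher and 7 lower. The median size of their difference was 0.09 on the log2 scale, against 0.09 over all named genes, and the differences of the brightest probes lay between -0.31 and 0.36. From *Lpin1*, 0.743 Mb further on, to the distal border, 15 of 18 (83.3%) did not overlap, 10 higher and 5 lower, with a median size of 0.33 and differences between -1.47 and 1.85. The dividing point between *Trib2* and *Lpin1* was chosen after the values were seen. The distal stretch holds *Greb1*, *E2f6* and the neighbours whose differences chose the block, so its share is a description and tests nothing. The value of -1.47 is that of *Kcnf1*, which passed the filter through the wt arrays only. Members with alike probes, described below, are counted as separate genes. All 6 members with an adjusted p below 0.05 and all 3 past the methods' thresholds, *Kcnf1* among them by its measured means, lie in the distal stretch of 2.96 Mb. The median SD between the 3 arrays of a genotype was 0.10 in Prss55-/- and 0.07 in wt testis for the distal members, against 0.07 and 0.08 over all named genes. When arrays were scaled to their 75th percentile instead, 14 of the 18 distal members and 12 of the 46 others did not overlap (27.7% of all named genes), and with normexp background correction 12 and 10 (22.9% of all).

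**Figure D1:**
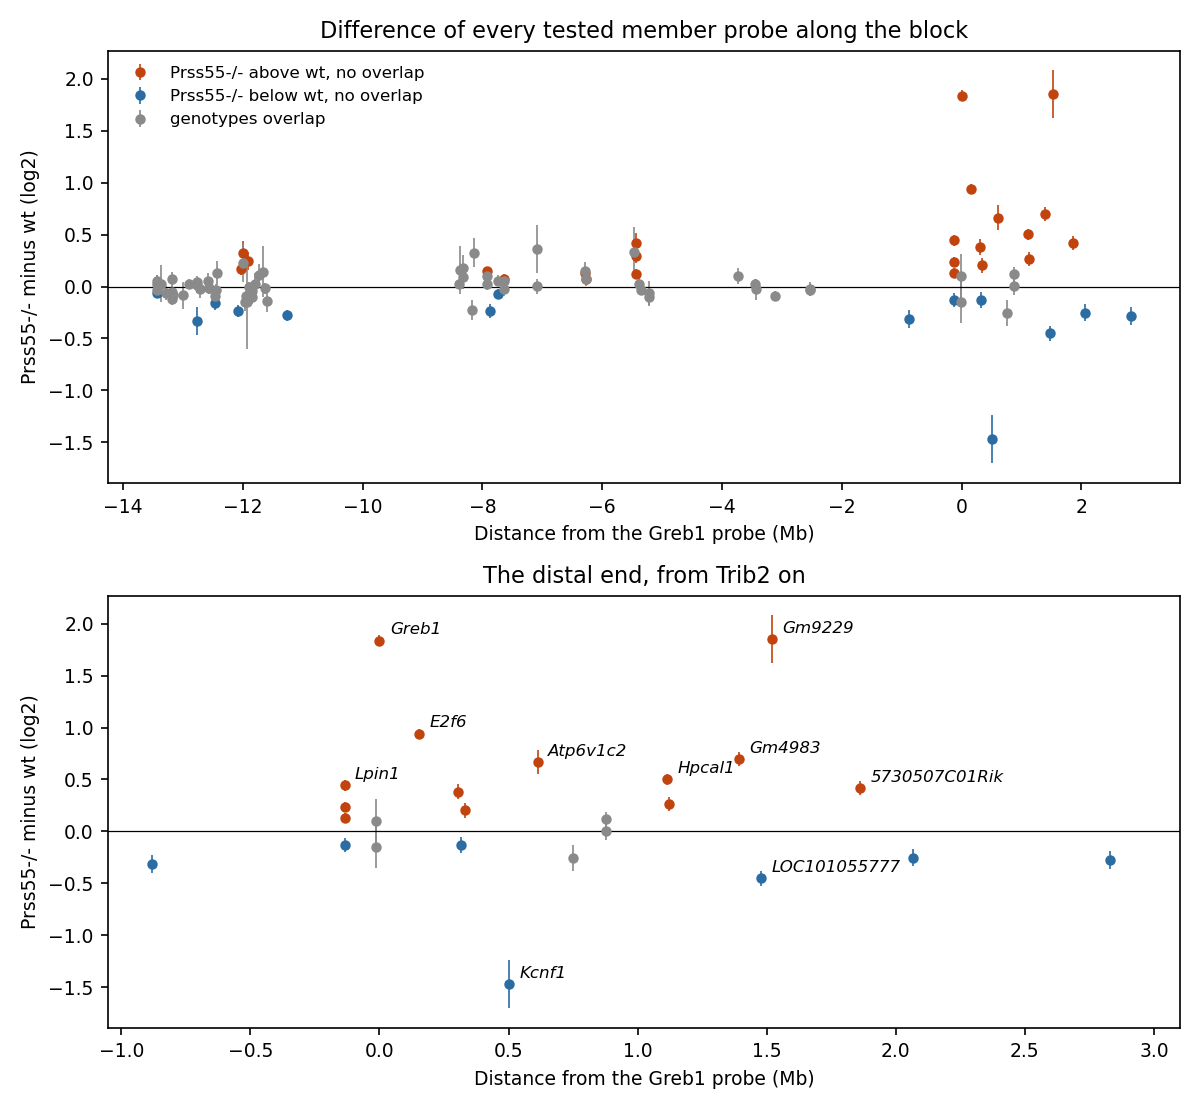
Prss55-/- minus wt difference (log2, vertical) of each tested member probe against its distance from the *Greb1* probe (Mb, horizontal), over the whole block above and from *Trib2* on below. Bars are standard errors from limma, orange and blue points are probes whose genotypes did not overlap (n = 3 each) and grey points those that did; differences beyond 0.5 in size all lie to the right of *Trib2*, from *Greb1* (1.84) to *Gm9229* (1.85).

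Of the members in steroid receptor and hormone signalling, *Greb1* stood apart. Its probe read 8.53, 8.46 and 8.57 in Prss55-/- testis and 6.61, 6.72 and 6.71 in wt testis. The 3 Prss55-/- values all lay above the wt values, with means of 8.52 ± 0.05 and 6.68 ± 0.06 (SD, n = 3) and a difference of 1.84 ± 0.06 (SE), or 3.58-fold. With normexp correction, which adds an offset of 50 to the signal, this difference was 1.18. *Ntsr2*, a neurotensin receptor gene whose probes lie 0.01 Mb from that of *Greb1*, differed by 0.10 ± 0.21 on 1 probe and -0.15 ± 0.20 on the other, with overlapping genotypes. *Ncoa1*, a steroid receptor coactivator, differed by 0.13 ± 0.12 and *Gdf7*, a ligand of the BMP family, by 0.16 ± 0.23, both overlapping.

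Of 8 members in transcription and chromatin, *E2f6*, one of the genes the block was chosen by, had the largest difference. It read 10.77, 10.66 and 10.70 in Prss55-/- testis and 9.74, 9.77 and 9.79 in wt testis. The genotypes did not overlap, and the difference of 0.94 ± 0.05 corresponds to 1.92-fold. A further *E2f6* probe stayed at background on the 6 arrays. *Trib2*, a pseudokinase that acts as a scaffold for protein degradation, read 7.20, 7.03 and 7.14 against 7.46, 7.56 and 7.29, lower in all 3 Prss55-/- arrays by 0.31 ± 0.08. The 6 other genes of the group overlapped between genotypes on their brightest probe, among them *Mycn*, the MYC family factor of progenitor cells (0.10 ± 0.08), and *Dnmt3a*, the DNA methyltransferase needed for methylation of male germ cells (0.01 ± 0.07).

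Lipid and polyamine genes included *Lpin1*, a phosphatidate phosphatase that also acts as a transcriptional coactivator. Its 4 probes did not give the same value. The probe called by limma read 12.53, 12.60 and 12.64 in Prss55-/- and 12.12, 12.21 and 12.11 in wt testis, a difference of 0.44 ± 0.05. The 3 probes that span 140 bases on the reference transcript differed by -0.13 ± 0.07, 0.13 ± 0.05 and 0.24 ± 0.05, and on each of the 4 the genotypes did not overlap. *Odc1*, ornithine decarboxylase and the entry enzyme of polyamine synthesis, read 16.61, 16.57 and 16.57 against 16.59, 16.33 and 16.48. Its genotypes overlapped and its difference was 0.12 ± 0.07. *Nt5c1b*, a cytosolic nucleotidase of testis, was 0.13 ± 0.06 higher and *Rdh14*, a retinol dehydrogenase, 0.07 ± 0.05, both without overlap on the brightest probe. Their other tested probes differed by 0.15 ± 0.08 and 0.07 ± 0.07, with overlapping genotypes. The median size of a difference over all named genes was 0.09.

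Of the ion channel and calcium sensor genes 2 were tested. *Kcnf1*, an electrically silent potassium channel subunit, read 4.39, 4.18 and 4.40 in Prss55-/- testis, not well above background on any of the 3 arrays, and 5.69, 6.31 and 5.37 in wt testis. With each Prss55-/- value set to the lowest signal that counted as well above background on its array, *Kcnf1* was 1.81-fold lower in Prss55-/- testis. The measured means differed by -1.47 ± 0.23. With normexp correction the difference was -0.51. *Hpcal1*, a calcium sensor of the visinin family, was higher on both probes without overlap, by 0.50 ± 0.05 (8.48, 8.52 and 8.60 against 8.00, 8.02 and 8.08) and by 0.26 ± 0.07. The larger of these differences was 0.34 with normexp correction.

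Genes of the cytoskeleton, membrane traffic and proton pump that lie distal to *E2f6* include *Atp6v1c2* and *Pqlc3*. *Atp6v1c2*, a C subunit of the vacuolar proton pump, read 7.85, 8.13 and 7.81 against 7.15, 7.44 and 7.21, a difference of 0.66 ± 0.12 without overlap, which was 0.44 with normexp correction. *Pqlc3*, which encodes a PQ-loop membrane protein, lay between *E2f6* and *Atp6v1c2* and was 0.13 ± 0.08 lower in Prss55-/- testis, with 8.22, 8.00 and 8.23 against 8.31, 8.23 and 8.31. Its genotypes barely failed to overlap, with a highest Prss55-/- value of 8.234 and a lowest wt value of 8.235. *2410004P03Rik*, next to *Pqlc3* and in none of the role groups, was 0.20 ± 0.08 higher (9.78, 9.93 and 9.86 against 9.67, 9.53 and 9.76). Of the 10 tested cytoskeletal members 1 was higher and 2 were lower without overlap, a share near the 28.0% of all named genes, and the median difference was -0.06. Of the 8 of membrane traffic, cilia and proton pump 2 were higher and 2 lower, with a median of 0.00.

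RNA and DNA metabolism genes of the block lie mostly on the *Rab10* side. *Ddx1*, an RNA helicase, differed by 0.03 ± 0.05, *Nbas*, a tethering and mRNA decay factor, by -0.09 ± 0.05, and both overlapped. *Fam84a* overlapped too, at -0.03 ± 0.06. *Nol10*, a nucleolar protein gene and the distal member of this group, read 6.53, 6.03 and 6.25 against 6.48, 6.55 and 6.55 and overlapped. *Gen1*, a resolvase of Holliday junctions, was higher on all 3 tested probes without overlap, by 0.12 ± 0.05, 0.30 ± 0.07 and 0.42 ± 0.10, none with an adjusted p below 0.05. *Gen1* and *Nol10*, like the other members below that are given without a call, were chosen for the text after their values were seen.

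The 6 most distal members, from *Gm4983* on, did not overlap between genotypes, 3 higher and 3 lower, where the share over all named genes was 28.0%. *Gm9229*, a predicted gene, had a difference as large as that of *Greb1*. It read 8.19, 8.33 and 8.38 in Prss55-/- testis and 6.87, 6.52 and 5.94 in wt testis, a difference of 1.85 ± 0.23 or 3.61-fold, in which the spread lay mostly among the wt arrays (SD of 0.47 against 0.10). With normexp correction the *Gm9229* difference was 1.26. *LOC101055777*, 0.04 Mb before it, was 0.45 ± 0.07 lower in Prss55-/- testis. *5730507C01Rik* was 0.42 ± 0.07 higher, and *Gm9241* and *LOC101055890* were 0.25 ± 0.08 and 0.28 ± 0.09 lower. The probes of *LOC101055777* and *LOC101055890* share 48 of 60 bases, so RNA of 1 gene may be read by the probe of the other, and values of this multigene stretch are uncertain to that extent.

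*Gm4983* read 8.22, 8.39 and 8.38 in Prss55-/- and 7.60, 7.59 and 7.70 in wt testis, a difference of 0.70 ± 0.07, which was 0.45 with normexp correction. Its probe (chr12:18072099-18072158, mm9, plus strand) matches a probe of *Hpcal1* (chr12:17798407-17798466, plus strand) at 52 of 60 bases. The first 30 bases of the probes are printed with the 3 mismatches in this stretch in capitals.
Hpcal1 probe: cTgaccaaagcCgcttgcatgtatatacCg
Gm4983 probe: cCgaccaaagcTgcttgcatgtatatacTg
Counted from 1 at the first base printed, with the *Hpcal1* base before the position and the *Gm4983* base after it, the differences are T2C, C12T and C29T, and the other 5 lie further on. The matching *Hpcal1* probe was 0.26 ± 0.07 higher and read 10.81, 10.99 and 11.00 against 10.62, 10.71 and 10.67, so that *Hpcal1* RNA cannot be told from *Gm4983* RNA with certainty here.

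**Figure D2:**
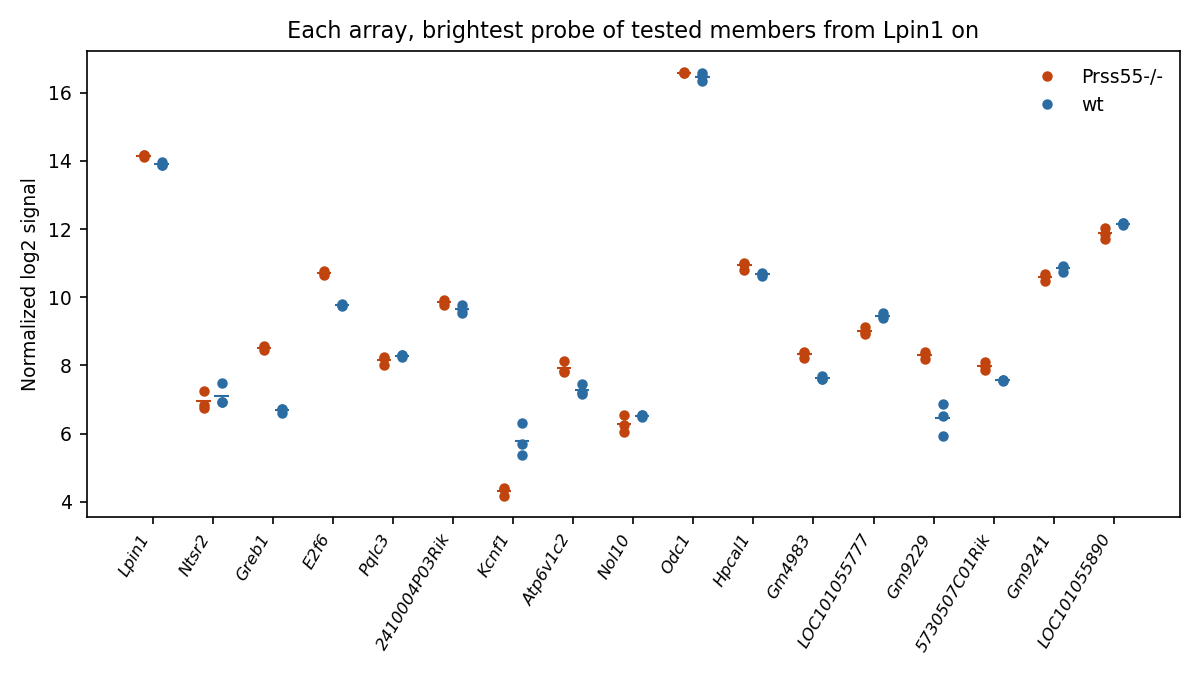
Normalized log2 signal (vertical) of the brightest probe of 17 of the 18 tested members from *Lpin1* on, in order of position (horizontal), with 1 point per array and a line at the mean of each genotype (n = 3). The genotypes are clear of each other for *Greb1*, *E2f6*, *Kcnf1*, *Atp6v1c2*, *Gm4983* and *Gm9229*, and overlap for *Ntsr2*, *Nol10* and *Odc1*.

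Probes of the same gene offered a second reading. For 24 members with more than 1 tested probe the differences spread by a median of 0.12, and in 18 of them by less than 0.3. The largest spread was that of *Lpin1* (0.57), followed by *Itsn2*, an endocytic scaffold (0.48, of which 1 probe lacks the value of Prss55-/- replicate 1, flagged as an outlier spot), *Fam228b* (0.39) and *Dnmt3a* (0.37). Probes had opposite signs in 13 of the 24. No member's probes differed by more than 1. *Greb1* and *E2f6* have no further tested probe in the block, nor has *Gm9229*, so on the arrays their differences rest on 1 probe each. For *Greb1* the paper also reports qRT-PCR, in which it was higher in Prss55-/- testis by a smaller fold than on the array.

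**Figure D3:**
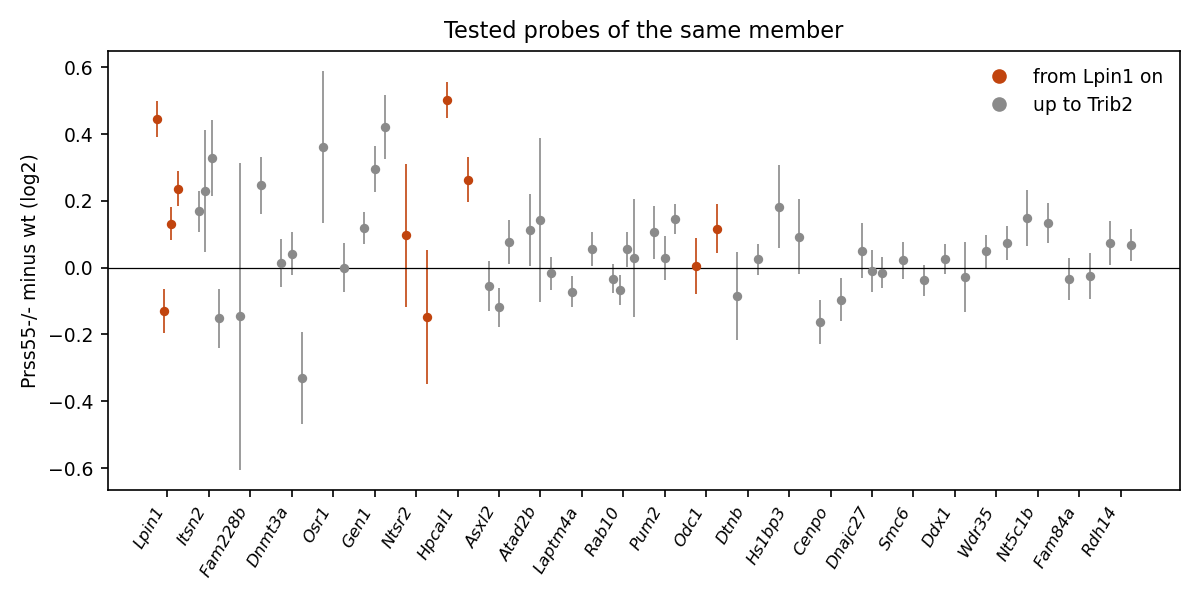
Prss55-/- minus wt difference (log2, vertical) with its standard error for each tested probe of the 24 members that had more than 1, ordered by the spread between probes (horizontal). The 4 members from *Lpin1* on are orange and the others grey, and the probes of *Lpin1* range from -0.13 to 0.44.

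At the proximal border there was no named gene before 3 Mb, and *Rab10*, a small GTPase of vesicle transport, was 0.07 ± 0.04 lower on its brightest probe. At the distal border the last member inside, *LOC101055890* at 19.51 Mb, was 0.28 ± 0.09 lower, and the first tested genes outside, *LOC668643* at 20.33 Mb and *1700030C10Rik* at 20.81 Mb, were 0.40 ± 0.09 and 0.52 ± 0.10 lower, all without overlap. The next tested gene, *Zfp125* at 20.90 Mb, differed by -0.15 ± 0.17 and its genotypes overlapped. Beyond the border 7 of 11 genes between 20 and 25 Mb (63.6%) did not overlap, 2 higher and 5 lower in Prss55-/- testis. Between 25 and 30 Mb 14 of 21 (66.7%) did not overlap, 3 higher and 11 lower. Over all 520 tested genes of chromosome 12 beyond the block the share was 35.4%, and off chromosome 12 it was 27.7%.

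**Figure D4:**
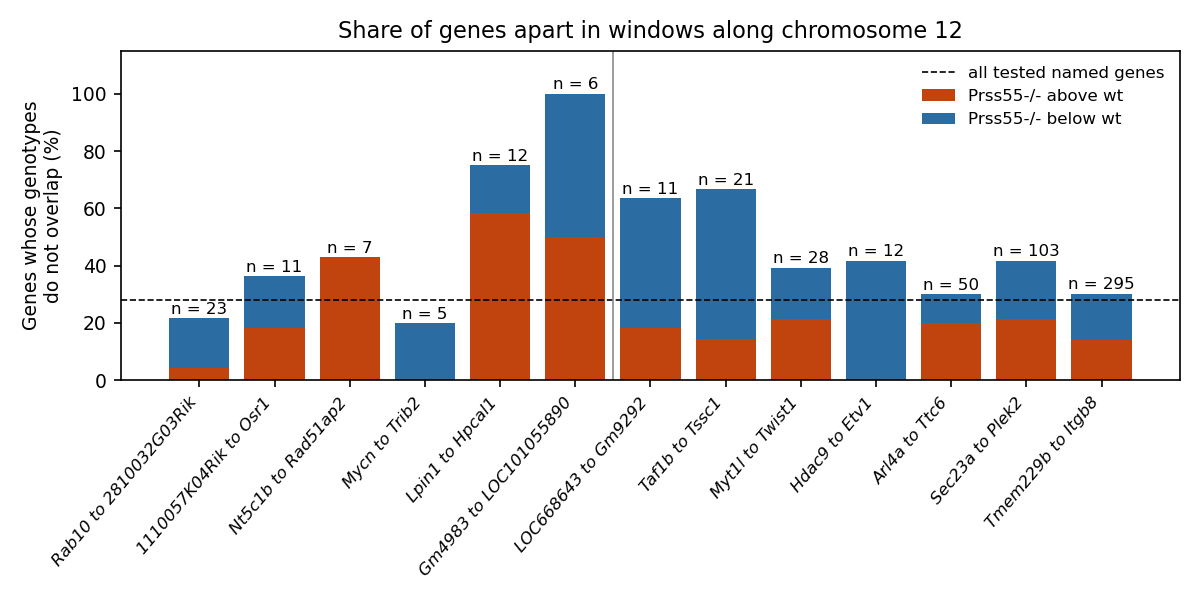
Share of tested genes whose Prss55-/- and wt arrays did not overlap (%, vertical) in windows along chromosome 12 named by their end genes (horizontal), split by direction, with the number of genes above each bar and the share over all named genes (28.0%) as a dashed line. The grey line marks the distal border of the block; the windows from *Lpin1* on reach 75% and 100% (12 and 6 genes), and those just beyond the border 63.6% and 66.7%.

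Genes that work with *E2f6* and *Greb1* were followed in 4 lists of genes outside the block. None of the 14 tested genes of the E2F6 Polycomb complex, the 10 of the E2F family and its pocket proteins, or the 4 germline genes that E2F6 is known to repress had an adjusted p below 0.05 by limma, and their median differences were 0.02, 0.07 and 0.02, against 0.00 over all named genes. The genotypes did not overlap for 4 of 14, 2 of 10 and 0 of 4 of these genes, and for 6 of 14 of the oestrogen receptor signalling list, where the share over all named genes was 28.0%. Of 14 tested genes of oestrogen receptor signalling, *Nrip1*, a corepressor of nuclear receptors, was the one called, on 1 of its probes, at -0.54 (limma adjusted p = 0.037), and its call was lost in 5 of the 6 fits that left out 1 array. Its brightest probe differed by -0.28. On the brightest probe of each gene the list ranged from -0.33 for *Esr1*, the oestrogen receptor gene, whose genotypes overlapped and whose other probe differed by 0.08, to 0.32 for *Ncoa2*, a coactivator, whose genotypes did not overlap and whose other probes differed by 0.16 and 0.06. The median of the list was -0.11. At an unadjusted p below 0.05, 15 of the 42 tested genes of the 4 lists passed on any probe, as did 25.5% of all named genes, and by the methods' test with adjustment 0 of them did.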

How the data were processed

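Testes of 3 Prss55-/- and 3 wt mice were measured on 6 one-colour Agilent arrays. Per the file headers, the authors' intensity values are background-corrected processed signals of Feature Extraction 10.7.3.1, with probe positions in mm9, and the series also holds deposited log2 values of the same arrays, which the authors normalized by quantiles (highest correlation with another array 0.994, with the own array at least 0.99998; their centring is that of quantiles and no dye direction arises with 1 colour). Here signals below 1 were set to 1, quantile-normalized on the log2 scale, outlier spots dropped, spots averaged per probe, and 28606 of 41174 probes tested with limma 3.58.1 in R 4.3.3 (Benjamini-Hochberg adjustment). The fit was tested on simulated data. The number of arrays limits the precision. Members, lists, and tests were chosen with earlier results of these data known. The values of 1 member are not reported here. By rule the text names, with that exception, *Greb1*, *E2f6*, the 6 nearest tested members on each side of *Greb1*, every member called, border genes, members whose probes differ by over 1, *Prss55* and list genes called; further genes that describe groups were chosen after their values were seen. Current symbols of RefSeq matched 71 of the 76 members, 6 under another symbol, and the names of the array files are kept. Alternatives were other scaling, background correction, filters, the deposited table, slide or replicate as a block, the methods' t-test and leaving out each array.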

Additional observations from a re-analysis of the deposited data

Results flagged for a closer look

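Of 10 tested probes in the block that carry no gene name, and so belong to no member, 2 had an adjusted p below 0.05 by limma. The probe NAP092468-001 at chr12:3521828-3521887 (mm9), close to the proximal border, read 12.69, 12.62 and 12.55 in Prss55-/- testis and 10.61, 10.81 and 10.67 in wt testis, a difference of 1.92 (limma adjusted p = 0.00064). No named member within the proximal stretch up to *Trib2* had a difference of that size. The probe NAP043799-1 at chr12:15129604-15129663 read 8.15, 8.37 and 8.30 against 8.74, 8.87 and 8.95, a difference of -0.58 (limma adjusted p = 0.040). What RNA these probes read is not known from the files.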

How the results depend on the processing

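The 14 other settings gave 251 values of the 18 named members. Of these, 244 lay within 1 SD of the reported value and 7 did not, all with normexp background correction, and no called member changed direction. Changing the filter or the test, or adding the replicate block, leaves a difference as it was. Leaving out 1 array moves the mean of a genotype by less than the SD of that genotype. Most of the 244 were therefore fixed in advance and do not show that the values are stable. The number of members with an adjusted p below 0.05 (6) was 2 with the methods' t-test, 4 with no filter (*Lpin1* and *Gm9229* lost), 4 with the brightest probe alone, 6 with normexp background (*Gm4983* and *Hpcal1* lost, *Kcnf1* and *LOC101055777* gained), 8 with probes well above background on all arrays, and between 2 and 7 with 1 array left out. The count of at least 2-fold (3) was 2 with normexp background and with probes well above background on all arrays, *Kcnf1* dropping out of both, and 3 in every fit that left out an array. The number of list genes called outside the block (1) was 0 with normexp background, with no filter, with the methods' t-test and with the brightest probe alone, and between 0 and 1 with 1 array left out. With replicate number as a block the members called fell to 1 (*Greb1*) and the list genes to 0. Same-numbered samples did not deviate together (correlations of deviations -0.05, -0.02 and -0.11). With so few arrays this cannot show whether mice of the 2 genotypes were paired. The paper describes the mice of the arrays as 3 pairs, and the labels do not name the pairs. The slide as a random block left the 6 members called, but no slide held both genotypes, so this setting cannot separate slide from genotype. The cause of these moves was not tested. A median of all tested probes moved by at most 0.02 under any scaling. Dim signals limit *Kcnf1*, whose Prss55-/- values are at the background.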

Other observations

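Further along chromosome 12, beyond 20 Mb, genes of other functions differed without overlap between genotypes, each read by 1 tested probe except *Id2*. *Adi1*, an enzyme of methionine salvage, read 7.89, 7.75 and 7.87 in Prss55-/- and 6.81, 6.85 and 6.59 in wt testis, 1.09 higher. *Rrm2*, the small subunit of ribonucleotide reductase, was 0.72 higher, *Pxdn*, a matrix peroxidase, 0.67 higher, and *Allc*, allantoicase, 0.45 higher. *Colec11*, a collectin, was 0.65 lower. The probes of *Id2*, an inhibitor of basic helix-loop-helix factors, disagreed in direction: -0.40 on the dimmest, and 0.26 and 0.22 on the others, the last with overlapping genotypes. These genes lie between 25.4 and 30.7 Mb and were named after their values were seen. They do not stand for the direction of their region. Of the 21 tested genes between 25 and 30 Mb, 3 were higher and 11 lower without overlap.

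Prss55-/- replicate 1 stood apart further on. *Agr3*, a disulfide isomerase family gene near 36.7 Mb, read 2.79 and 2.73 on its probes in this mouse, not well above background, where the other Prss55-/- mice read 8.73 to 9.28 and the wt mice 9.64 to 10.34. *Prps1l1*, a testis phosphoribosyl pyrophosphate synthetase, read 12.19 in it against 13.15 and 13.10 in the other Prss55-/- mice and 13.80 to 13.89 in wt testis. Within the block, leaving out this array kept *Greb1*, *E2f6*, *Lpin1*, *Hpcal1*, *Gm4983* and *Gm9229* below an adjusted p of 0.05 and added *5730507C01Rik*.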
